A study of Homo sapiens with 6 samples.

Results

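The 8 protein-coding genes described across 6 RNA-seq libraries were SAMD12, MRFAP1, RTL8C, SHISA5, SLC35A5, SNX10, ARL2BP and BRPF3. They were selected on the deposited expression values themselves, as named genes whose level was higher in all 3 libraries of AS-tDR-007333-overexpressed cells (labelled OE in the plots) than in all 3 libraries of negative control (NC) cells. All 8 were found among the 12154 genes of the table and all 8 met this rule, so the difference between the groups is given for them as a description, with no test. The study had already listed all 8 among the genes it found significantly regulated by AS-tDR-007333 overexpression. AS-tDR-007333 is a tRNA-derived fragment (tRF), a small RNA cut from the 5′ end of a glycine tRNA. The sample labels name A549, a lung adenocarcinoma cell line, transfected with a tRF plasmid, and an empty vector for the controls, whereas the study's methods name PC9, another lung adenocarcinoma line, transfected with AS-tDR-007333 or NC. All 6 libraries thus came from transfected cells of 1 line. Whether the libraries within a group derive from separate cultures is not stated, and p-values then measure only a spread that may be technical.

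The fragment for which the groups are named is shown with the negative control oligonucleotide of the study's list, each of 28 nucleotides, 5′ to 3′. By the labels the control cells received an empty vector, so whether the NC libraries carry this control sequence is not settled.
AS-tDR-007333: gcauuggugguucagugguagaauucuu
Negative control: gagaauuuugauggccguucuguaugug

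The 8 genes do not form a known pathway, and their products work in different parts of the cell. SHISA5 (Scotin), SLC35A5 and SNX10 act in the membranes of the endoplasmic reticulum, Golgi and endosomes. ARL2BP binds a small GTPase, MRFAP1 and BRPF3 belong to the proteins that surround histone acetyltransferases, RTL8C descends from the Gag gene of an ancient retrotransposon, and SAMD12 carries a sterile alpha motif, a fold through which proteins bind each other.

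The values are FPKM, that is, sequenced fragments divided by gene length and by the mapped fragments of the same library, which allows levels to be set side by side between genes. Summed over all genes, each NC library held 197324 to 201603 FPKM and each AS-tDR-007333 library 199110 to 202921 FPKM. The table gives no read counts, so the depth behind each value is unknown. Differences are given as ratios of mean FPKM and as differences of mean log2(FPKM + 1), which are smaller than the log2 ratio for genes of low FPKM. All 6 epithelial markers were listed, with a summed level of 1475 to 1639 FPKM in NC and 1593 to 1652 FPKM in AS-tDR-007333 libraries. Of 10 enzymes driven by NRF2 and known for high levels in A549, 9 were listed. They summed to 1097 to 1111 FPKM in NC and 1091 to 1114 FPKM in AS-tDR-007333 libraries. ALDH1A1, the remaining enzyme, was looked for in the same way and was not listed. None of 9 leukocyte, endothelial and neuronal markers was listed, and of 3 fibroblast markers only COL1A1 was, at 5.09 to 6.10 FPKM. In such bulk libraries, fewer cells with a transcript and less of it per cell cannot be told apart.

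Over the 8 genes, the ratio of AS-tDR-007333 to NC means had a median of 1.90 and ran from 1.69 for ARL2BP to 3.53 for SAMD12. On the log2(FPKM + 1) scale the differences ran from 0.71 to 1.12 with a median of 0.82, while the median was -0.01 for the 11042 genes tested, those averaging 1 FPKM or more. The rule required that the groups do not overlap, which held for all 8 by construction, and for 3.58% of the 11042 genes in this direction. The 8 genes are not every gene of this kind. In all, 15 genes had no overlap between the groups and a log2 difference at least as large as that of BRPF3, the smallest of the 8. Just below BRPF3 came RPL7L1, at 9.07, 9.60 and 9.79 FPKM in NC and 15.5, 16.1 and 15.7 FPKM in AS-tDR-007333 libraries (log2 difference 0.68), and PRPS2, at 10.2, 11.9 and 11.98 FPKM in NC and 22.01, 13.0 and 22.5 FPKM in AS-tDR-007333 libraries (0.67).

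**Figure D1:**
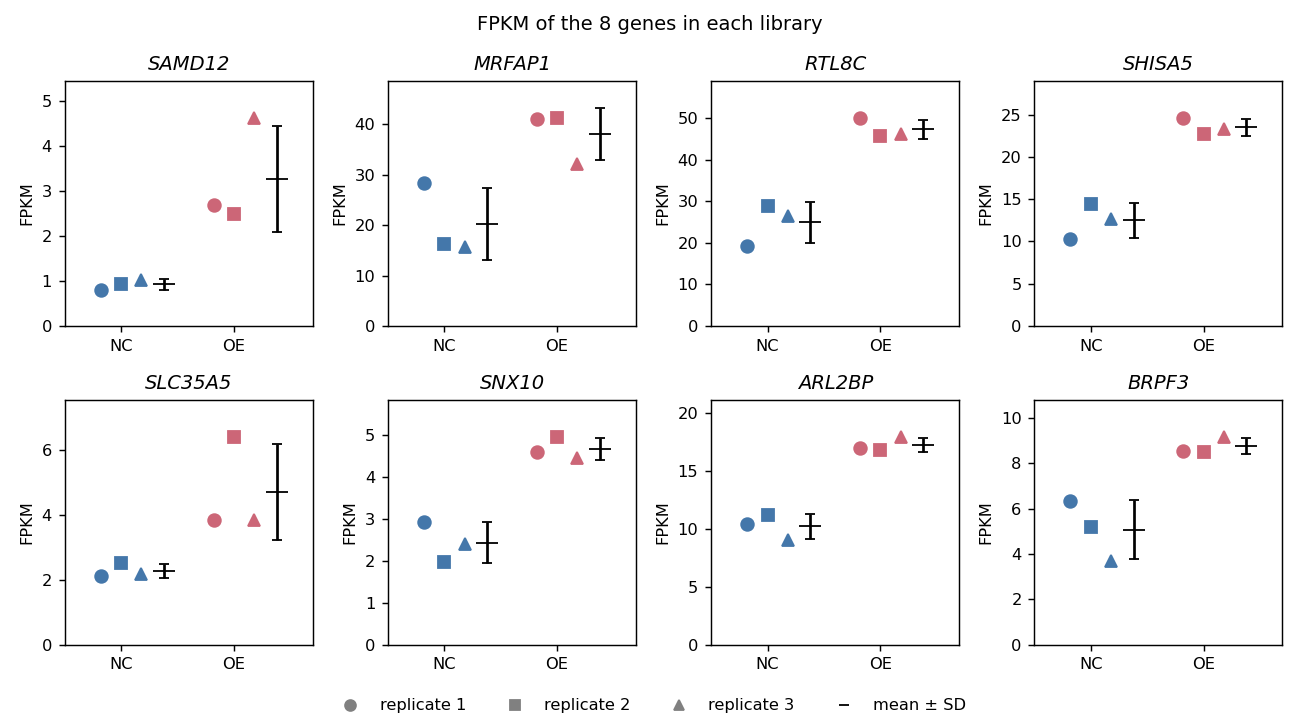
FPKM (vertical axes, from 0) of the 8 genes in the 3 NC and the 3 AS-tDR-007333 (OE) libraries, with the mean and SD of each group (n = 3). No panel shows an overlap between the groups, the narrowest space is that of MRFAP1 (28.4 FPKM in NC replicate 1, 32.2 FPKM in AS-tDR-007333 replicate 3), and SAMD12 and SLC35A5 each have a single AS-tDR-007333 library far above the other two.

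SHISA5 encodes Scotin, a membrane protein of the endoplasmic reticulum and nuclear envelope that p53 can induce and that can promote apoptosis. Its level was 10.3, 14.4 and 12.7 FPKM in NC replicates 1 to 3 and 24.6, 22.7 and 23.2 FPKM in AS-tDR-007333 replicates 1 to 3. The AS-tDR-007333 libraries lay close together, and the lowest of them was 1.57 times the highest NC library. The means were 12.5 ± 2.07 FPKM and 23.5 ± 0.968 FPKM (SD, n = 3 each), a ratio of 1.88 and a log2 difference of 0.87. SHISA5 (ENSG00000164054) is read from the minus strand of GRCh37 chromosome 3, 48509197 to 48542259. TREX1, which encodes a DNA exonuclease and ends 152 bp from the 3′ end of SHISA5 on the other strand, was at 2.46, 2.16 and 1.08 FPKM in NC and 1.19, 1.49 and 1.45 FPKM in AS-tDR-007333 libraries, with groups that overlapped (log2 difference -0.26, limma adjusted p = 0.9996). AC134772.2, which shares that end, lay below the filter, at 0.458 to 0.467 FPKM in NC and 0.531 to 0.608 FPKM in AS-tDR-007333 libraries, and was not tested.

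SLC35A5 belongs to the SLC35 family, whose members carry nucleotide sugars into the Golgi and endoplasmic reticulum for glycosylation. The gene was listed at 2.12, 2.504 and 2.18 FPKM in NC and at 3.83, 6.41 and 3.86 FPKM in AS-tDR-007333 libraries. AS-tDR-007333 replicate 2 stood apart, and without it the ratio of means fell from 2.07 to 1.69, with all remaining AS-tDR-007333 libraries still above all NC libraries. The means were 2.27 ± 0.207 FPKM and 4.70 ± 1.48 FPKM (SD, n = 3 each), a log2 difference of 0.77. SLC35A5 (ENSG00000138459) is read from the plus strand of GRCh37 chromosome 3, 112280556 to 112304424, and its first 338 bp overlap ATG3, an autophagy conjugating enzyme read from the other strand. ATG3 was at 9.59, 9.88 and 8.64 FPKM in NC and 9.002, 8.75 and 8.96 FPKM in AS-tDR-007333 libraries, a log2 difference of -0.06 (limma adjusted p = 0.9996), and its groups overlapped. The libraries were made with a stranded kit, but the sources used here do not say whether counting used strand.

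SNX10 is a small sorting nexin that binds phosphoinositides on endosomes and interacts with the vacuolar proton pump, and its mutation in humans causes osteopetrosis. Levels of SNX10 were 2.93, 1.97 and 2.41 FPKM in NC and 4.60, 4.96 and 4.45 FPKM in AS-tDR-007333 libraries. NC replicate 1 was the highest and NC replicate 2 the lowest of the controls, and the lowest AS-tDR-007333 library was 1.52 times the highest of them. The means were 2.43 ± 0.483 FPKM and 4.67 ± 0.259 FPKM (SD, n = 3 each), a ratio of 1.92 and a log2 difference of 0.73. SNX10 (ENSG00000086300) is read from the plus strand of GRCh37 chromosome 7, 26331515 to 26413949.

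ARL2BP encodes the binding partner of ARL2, a small GTPase of microtubule and mitochondrial biology, and is mutated in human retinitis pigmentosa. It was listed at 10.4, 11.2 and 9.05 FPKM in NC and at 17.0, 16.8 and 17.95 FPKM in AS-tDR-007333 libraries. Both groups were tight, with an SD of 10.5% of the mean in NC and 3.55% in AS-tDR-007333 libraries, and ARL2BP had both the smallest ratio of the 8 genes (1.69) and the smallest spread on the log2 scale. The means were 10.2 ± 1.07 FPKM and 17.3 ± 0.613 FPKM (SD, n = 3 each), a log2 difference of 0.71. Leaving out any library kept the ratio between 1.60 and 1.77. ARL2BP (ENSG00000102931) is read from the plus strand of GRCh37 chromosome 16, 57279010 to 57287547, where PLLP overlaps it on the other strand in GENCODE release 44. PLLP was not analysed here.

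MRFAP1 encodes a nuclear protein that binds MORF4L1, a chromodomain subunit of the NuA4 acetyltransferase complex. MRFAP1 was listed at 28.4, 16.3 and 15.8 FPKM in NC and at 41.1, 41.2 and 32.2 FPKM in AS-tDR-007333 libraries. NC replicate 1 lay far above the other NC libraries and AS-tDR-007333 replicate 3 below the other AS-tDR-007333 libraries, so the lowest library of one group was only 1.13 times the highest of the other, the least room among the 8 genes. The means were 20.2 ± 7.14 FPKM and 38.1 ± 5.17 FPKM (SD, n = 3 each), a ratio of 1.89 and a log2 difference of 0.93. The ratio was 2.38 without NC replicate 1 and 1.71 without NC replicate 3. Its spread within the groups on the log2 scale was larger than that of 94.0% of the genes tested. MRFAP1 (ENSG00000179010) is read from the plus strand of GRCh37 chromosome 4, 6641818 to 6644472.

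BRPF3 encodes a scaffold with bromodomain, PHD and PWWP domains that directs the acetyltransferase KAT7 to histone H3. Its FPKM values were 6.31, 5.20 and 3.69 in NC and 8.56, 8.52 and 9.16 in AS-tDR-007333 libraries. The NC libraries were spread over a 1.71-fold range and the AS-tDR-007333 libraries over a 1.08-fold range. The means were 5.07 ± 1.32 FPKM and 8.75 ± 0.361 FPKM (SD, n = 3 each), a ratio of 1.73 and a log2 difference of 0.71. Without NC replicate 3, the lowest control, the ratio was 1.52, and without NC replicate 1, the highest, it was 1.97. BRPF3 (ENSG00000096070) is read from the plus strand of GRCh37 chromosome 6, 36164521 to 36200567.

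SAMD12 is best known for an intronic repeat expansion in human familial myoclonic epilepsy. SAMD12 was listed at 0.801, 0.946 and 1.03 FPKM in NC and at 2.70, 2.496 and 4.62 FPKM in AS-tDR-007333 libraries. AS-tDR-007333 replicate 3 was the highest by far, and without it the ratio of means went from 3.53 to 2.80. The means were 0.927 ± 0.118 FPKM and 3.27 ± 1.17 FPKM (SD, n = 3 each), a log2 difference of 1.12, the largest of the 8 genes. Its NC mean lay under the filter of 1 FPKM, so SAMD12 entered the fit through the group in which it was high. SAMD12 (ENSG00000177570) spans 119201698 to 119634234 on the minus strand of chromosome 8 of GRCh37. Antisense genes annotated over SAMD12, SNX10 and BRPF3 were not analysed here, and their part in the values was not tested.

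RTL8C is 1 of 3 neighbouring genes on the X chromosome (RTL8A, RTL8B and RTL8C) that derive from the Gag gene of a retrotransposon and are kept in placental mammals. RTL8C was listed at 19.3, 28.8 and 26.5 FPKM in NC and at 49.9, 45.7 and 46.2 FPKM in AS-tDR-007333 libraries. NC replicate 1 was the lowest library, and the AS-tDR-007333 libraries lay within 1.09-fold of each other. The means were 24.9 ± 4.95 FPKM and 47.3 ± 2.26 FPKM (SD, n = 3 each), a ratio of 1.90, a log2 difference of 0.92 and, at 22.4 FPKM, the largest gain in FPKM of the 8 genes. RTL8C (ENSG00000134590) is read from the plus strand of GRCh37 chromosome X, 134166396 to 134167576.

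The coding sequences of the RTL8 copies are nearly identical, which can matter for how reads are assigned to RTL8C. In GENCODE release 44 mapped to GRCh37, each coding sequence is 339 nucleotides long without its stop codon. RTL8A differs from RTL8C at 16 positions (95.3% identity) and RTL8B at 19 (94.4% identity). The coding sequences lie at chrX:134166414-134166752 (RTL8C, plus strand), chrX:134185800-134186138 (RTL8A, minus strand) and chrX:134156151-134156489 (RTL8B, minus strand) of GRCh37.

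Over all annotated transcripts, 7.68% of the 50-nucleotide stretches of RTL8C also occur in another gene, namely RTL8A or RTL8B (6.71% in RTL8B). For SAMD12 this share was 3.62%, for SHISA5 0.29% (in the pseudogene SHISA5P2), and for MRFAP1, SLC35A5, SNX10, ARL2BP and BRPF3 it was 0. Transcripts were compared only in the direction in which each is read. Overlap with a gene on the other strand, as of SLC35A5 with ATG3, is therefore not counted in these shares. A share of 0 does not mean that no other gene covers the same bases. Stretches elsewhere in the genome were not searched, and read length was not used.

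RTL8A was listed at 24.9, 16.0 and 15.8 FPKM in NC and at 15.8, 24.3 and 28.9 FPKM in AS-tDR-007333 libraries. It thus lay high in the NC library in which RTL8C was lowest, and its groups overlapped (log2 difference 0.26, limma adjusted p = 0.9996). The sum of RTL8A and RTL8C was nearly even over the controls, at 44.2, 44.8 and 42.3 FPKM, with an SD of 3.07% of the mean, against 19.9% for RTL8C and 27.4% for RTL8A alone. In the AS-tDR-007333 libraries the SD of the sum was 6.74% of its mean, against 4.78% for RTL8C and 28.96% for RTL8A alone. There this sum was 65.7, 70.1 and 75.1 FPKM, above all controls, and the ratio of means was 1.61 in place of 1.90. RTL8B stayed at 5.33 to 6.27 FPKM in NC and 4.94 to 6.47 FPKM in AS-tDR-007333 libraries. The part of read assignment between the copies in these values was not tested.

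MRFAP1 has a paralog on the same chromosome, MRFAP1L1, with which it shares no stretch of 50 nucleotides. MRFAP1L1 was at 31.2, 31.6 and 31.2 FPKM in NC and 31.2, 28.4 and 29.9 FPKM in AS-tDR-007333 libraries, a ratio of 0.951. It was even where MRFAP1 was spread, and NC replicate 1, the highest control for MRFAP1, did not stand out in it.

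**Figure D2:**
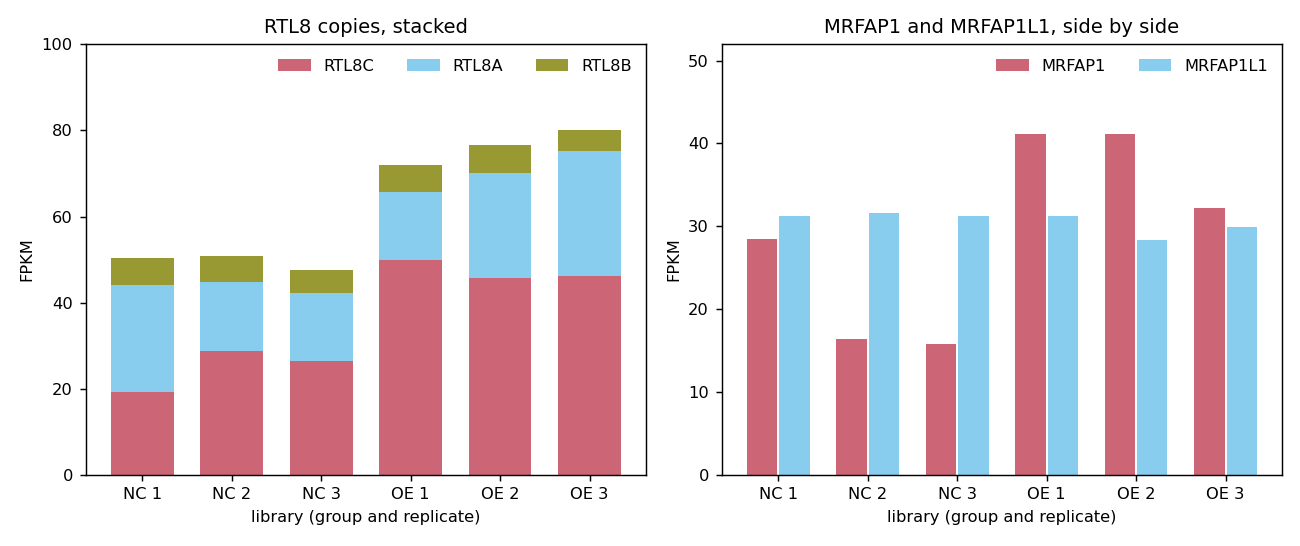
FPKM (vertical axes, from 0) in each library of RTL8C, RTL8A and RTL8B as stacked bars (left) and of MRFAP1 and MRFAP1L1 as bars side by side (right). The stacked RTL8 bars reach 47.6 to 50.8 FPKM in NC and 72.0 to 80.1 FPKM in AS-tDR-007333 (OE) libraries, while MRFAP1L1 stays between 28.4 and 31.6 FPKM throughout.

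The 8 genes covered a wide range of levels. RTL8C (higher than 86.8% of the genes tested in NC) and MRFAP1 (83.5%) were the most abundant per length, SHISA5 (72.1%) and ARL2BP (66.3%) followed, BRPF3 lay near the middle (42.2%), SNX10 (18.2%) and SLC35A5 (16.4%) were low, and SAMD12 was among the lowest (0.281%), a rank that the filter sets, since its NC mean lay under 1 FPKM and genes low in both groups were removed. Between neighbours in this order, the NC libraries overlapped for RTL8C (19.3 to 28.8 FPKM) and MRFAP1 (15.8 to 28.4 FPKM), for SHISA5 (10.3 to 14.4 FPKM) and ARL2BP (9.05 to 11.2 FPKM), and for SNX10 (1.97 to 2.93 FPKM) and SLC35A5 (2.12 to 2.504 FPKM). MRFAP1 and SHISA5, ARL2BP and BRPF3, BRPF3 and SNX10, and SLC35A5 and SAMD12 did not overlap.

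The library that strayed most differed between the genes. The one farthest from its own group mean on the log2 scale was NC replicate 1 for MRFAP1 (0.52), RTL8C (-0.33), SHISA5 (-0.24) and SNX10 (0.20), NC replicate 3 for BRPF3 (-0.35) and ARL2BP (-0.15), AS-tDR-007333 replicate 2 for SLC35A5 (0.41) and AS-tDR-007333 replicate 3 for SAMD12 (0.43). NC replicate 1 was thus high for MRFAP1 and SNX10 but low for RTL8C and SHISA5. Relative to the mean, 6 of the 8 genes were less spread in the AS-tDR-007333 libraries than in NC, as were 58.9% of all genes tested. With any library left out, the ratio stayed at 1.52 or more for every gene.

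**Figure D3:**
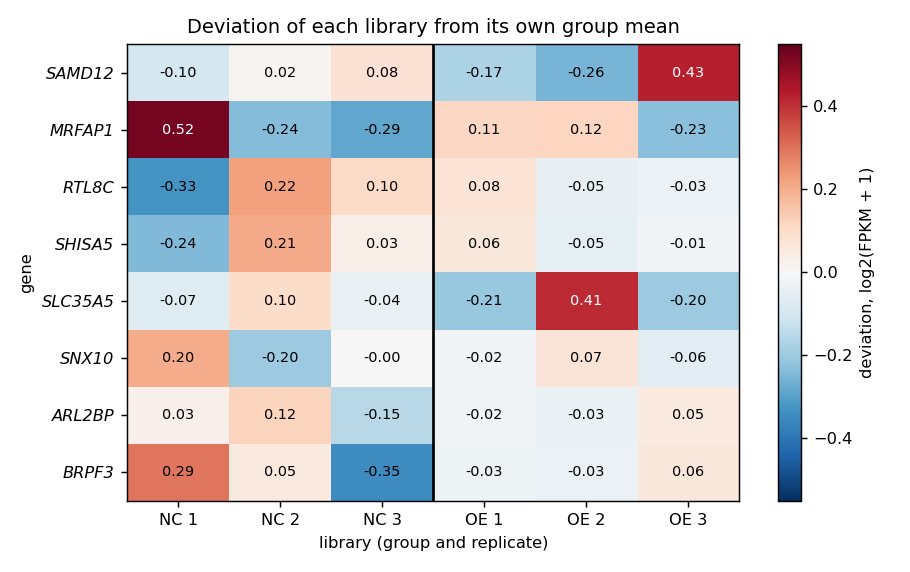
Deviation of each library from the mean of its own group, in log2(FPKM + 1), for the 8 genes (rows) in the 3 NC and 3 AS-tDR-007333 (OE) libraries (columns). Red is above and blue below the group mean, and the strongest cells are MRFAP1 in NC replicate 1 (0.52), SAMD12 in AS-tDR-007333 replicate 3 (0.43) and SLC35A5 in AS-tDR-007333 replicate 2 (0.41).

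RTL8C and SHISA5, on different chromosomes, were the closest match of each other in pattern. Over the 6 libraries, the Pearson correlation of their log2(FPKM + 1) was 0.996, the highest that either had with any gene tested. The best match of MRFAP1 was DNAJA3, a mitochondrial co-chaperone, at 6.98, 4.73 and 4.83 FPKM in NC and 7.95, 7.998 and 7.06 FPKM in AS-tDR-007333 libraries (r = 0.992), so that NC replicate 1 was high in both. For SAMD12 it was ID3 (r = 0.998), for SLC35A5 ZDHHC14 (0.993), for SNX10 MAOB (0.986) and for BRPF3 UQCRHL (0.983). These are the best matches among the 11042 genes tested, over 6 points that share the group difference, and 13 to 23 genes exceeded 0.95 for each of the 8 genes, so they describe pattern only.

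Whether the relatives and partners of the 8 genes differed between the groups can be tested, since the rule did not use their values. The lists were, however, chosen with earlier results of these data known, and RTL8A and RTL8B share sequence with RTL8C. Of 150 such genes in 8 lists, 121 were in the table and 117 passed the filter. At an adjusted p under 0.05, limma called 0 of the 117, against 0.0634% of all genes tested (7 of 11042). At an unadjusted p under 0.05, 4 were lower and 0 higher, 3.42% of the 117 against 3.61% of all genes, and a Ballgown-style model also called 0, with 11 of the 117 and 934 of the 11042 genes at an unadjusted p under 0.05. All 3 AS-tDR-007333 libraries lay above all NC libraries for 1 of the 117 genes and below them for 7, against 3.58% and 5.18% of all genes tested. The median log2 difference of the 117 genes was -0.01, that of all genes.

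None of the chromatin partners of MRFAP1 and BRPF3 was called by limma. Of 19 MORF4-related and NuA4 genes, 7 had a positive and 12 a negative log2 difference (median -0.02). MORF4L1, the partner of MRFAP1, was at 32.2, 20.8 and 39.1 FPKM in NC and 39.1, 38.6 and 33.6 FPKM in AS-tDR-007333 libraries, with groups that overlapped (log2 difference 0.30, limma adjusted p = 0.9996). Its relative MORF4L2 was at 101.3 ± 14.0 and 102.2 ± 5.86 FPKM (SD, n = 3 each). The smallest p-values of this list belonged to the acetylated-histone reader YEATS4 (-0.25) and the acetyltransferase KAT5 (-0.08), neither of which was called. Of 11 genes of the BRPF and JADE complexes (median 0.02), the BRPF3 paralogs BRPF1 and BRD1 had log2 differences of -0.01 and 0.15, and the acetyltransferases KAT6A, KAT6B and KAT7 of 0.09, 0.02 and 0.24. KAT7 was at 1.73 to 1.86 FPKM in NC and at 1.82, 3.28 and 1.95 FPKM in AS-tDR-007333 libraries, so its difference rested on replicate 2. MEAF6, a small subunit that both lists hold, had a log2 difference of 0.10.

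Among the GTPases and partners listed with ARL2BP, ARL2 was at 15.8 ± 1.181 FPKM in NC and 15.2 ± 2.16 FPKM in AS-tDR-007333 libraries, and ARL3, another GTPase that ARL2BP binds, at 4.01 ± 0.0671 and 3.96 ± 0.405 FPKM (SD, n = 3 each). Over the 26 genes tested, the median log2 difference was -0.04, with 6 positive and 20 negative values, beside 4968 positive and 6074 negative values over all genes tested. ARL15 (-0.20) had the smallest p-value and was not called.

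In the SLC35 family, 21 genes besides SLC35A5 were tested, with 11 positive and 10 negative log2 differences (median 0.01). SLC35E1 had the most negative value of the 117 genes (-0.57), at 10.4, 17.2 and 16.7 FPKM in NC and 9.42, 9.50 and 9.31 FPKM in AS-tDR-007333 libraries. NC replicate 1 was near the AS-tDR-007333 libraries, and SLC35E1 was not called over all 6 libraries (limma adjusted p = 0.9996) but was called lower without NC replicate 1 (limma adjusted p = 0.0124). SLC35E2B had the next smallest p-value and a log2 difference of 0.18. Of 25 sorting nexins besides SNX10 (median -0.01), SNX21 had a log2 difference of -0.46 and SNX24 of -0.13, and none was called. SNX21 was at 3.59, 2.87 and 2.18 FPKM in NC and 1.73, 1.61 and 2.07 FPKM in AS-tDR-007333 libraries.

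The remaining lists were short. Of 8 other SAM domain genes tested (median 0.06), SAMD4B, a regulator of mRNA translation, was at 8.73, 8.31 and 8.13 FPKM in NC and 6.31, 7.08 and 7.50 FPKM in AS-tDR-007333 libraries (log2 difference -0.24, limma adjusted p = 0.9996), and SAMD15 had 0.11. Of 5 other Gag-like genes (median 0.04), LDOC1, another Gag-derived gene, was at 30.3 ± 2.59 FPKM in NC and 32.0 ± 1.96 FPKM in AS-tDR-007333 libraries (SD, n = 3 each). Of 3 other SHISA genes (median 0.03), SHISA9 and SHISA4 had log2 differences of -0.12 and 0.05.

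**Figure D4:**
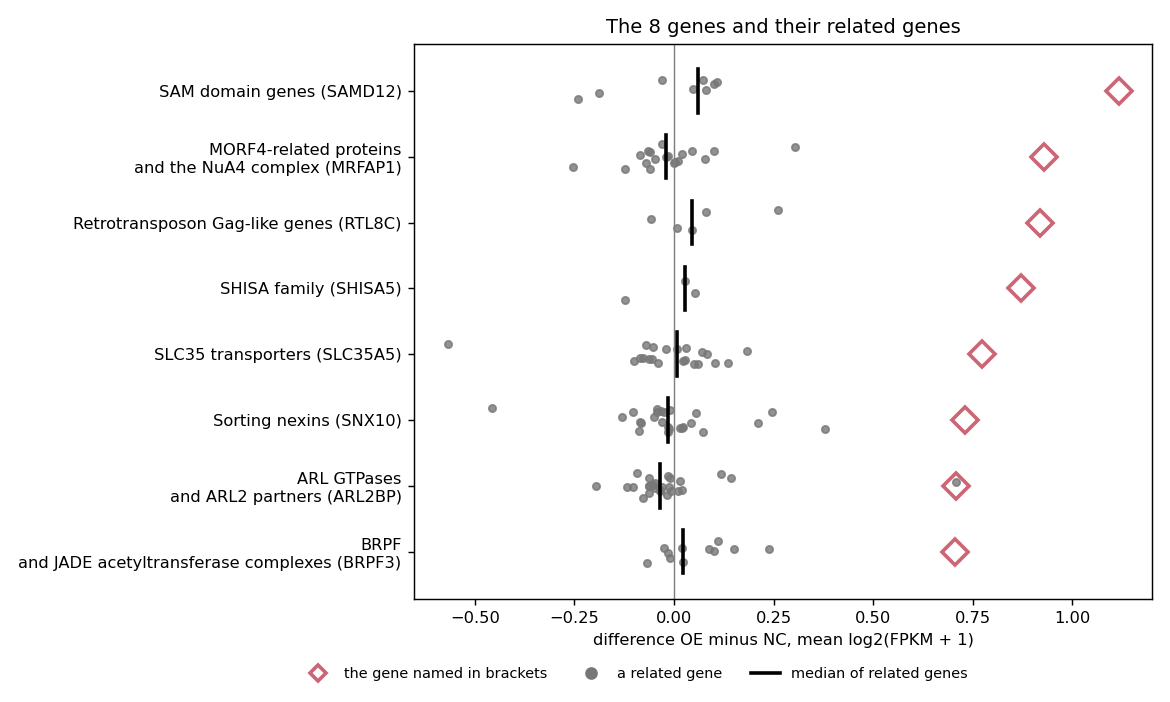
Difference of mean log2(FPKM + 1), AS-tDR-007333 (OE) minus NC (horizontal axis), for each of the 8 genes (diamonds) and the tested genes of its list (points, with the median as a bar). The list medians lie between -0.04 and 0.06, while the 8 genes, which were chosen for a positive difference, lie between 0.71 and 1.12.

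RefSeq promoter windows of 300 bases (250 before to 50 after a start site, GRCh38.p14) were at hand for 5 of the 8 genes, 12 windows in all, of which 6 belong to SNX10, 3 of them with nearly the same bases. They were searched on both strands for the ETS core CCGGAAG, since the study follows ELK4, an ETS factor. It was found in 1 of the 12 windows, a start site of SLC35A5, and in 10.2% of all 34796 windows. The SP box GGGCGG was in 4 of the 12 (44.9% of all), CCAAT in 2 (34.6%), TATAAA in 1 (11.6%) and the cyclic AMP element TGACGTCA in 1, a start site of SHISA5 (1.84%). The SLC35A5 window at chr3:112561795-112562094 of GRCh38.p14, plus strand, is shown because it alone holds the ETS core, which is in capitals wherever it reads on either strand.
SLC35A5: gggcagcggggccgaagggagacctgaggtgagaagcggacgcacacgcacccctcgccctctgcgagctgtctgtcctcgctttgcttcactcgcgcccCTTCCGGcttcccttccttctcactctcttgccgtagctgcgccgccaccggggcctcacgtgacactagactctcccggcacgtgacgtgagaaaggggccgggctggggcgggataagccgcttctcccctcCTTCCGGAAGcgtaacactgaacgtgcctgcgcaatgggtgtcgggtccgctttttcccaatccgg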

How the data were processed

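The table deposited by the authors gives FPKM for 12154 genes in 6 libraries, 3 per group, assigned to the groups by the sample labels. According to the study's methods, the authors mapped reads to GRCh37 with HISAT2 and calculated the deposited FPKM with Ballgown, and HISAT2 2.0.5 as well as featureCounts 1.5.0-p3 are named in the processing notes of the submitters. The annotation release was not given in the sources used here. FPKM is relative to each library's mapped fragments, so a change in abundant genes can shift others. No gene is listed whose larger group mean is under 0.5 FPKM.

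Here log2(FPKM + 1) was compared with limma 3.58.1 in R 4.3.3 (moderated variances with a trend) for the 11042 genes averaging 1 FPKM or more, with Benjamini-Hochberg adjustment over all of them and a threshold of 0.05. The procedure was tested on simulated data. The 8 genes and the lists of relatives were chosen with earlier results of these data known. Named genes were the 8, their copies, genes within 2000 bp, the direct partners, the 2 smallest p-values and any called gene of each list, and the best match in pattern. Alternatives were a pseudocount of 0.1 FPKM, no filter, a filter at 5 FPKM, median-of-ratios rescaling, an unmoderated linear model per gene in the manner of Ballgown (with library size as a term), the replicate number as a block, and leaving out each library. Shared sequence was counted over stretches of 50 nucleotides in GENCODE release 44 mapped to GRCh37, without the opposite strand. Promoters came from RefSeq (GRCh38.p14). Figures were drawn with matplotlib 3.10.9. Some items under the rule for named genes are not reported here.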

Additional observations from a re-analysis of the deposited data

How the results depend on the processing

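The median log2 difference of the 8 genes was 0.82. It became 0.94 with a pseudocount of 0.1 FPKM, with which the difference of SAMD12 went from 1.12 to 1.67 and that of SNX10 from 0.73 to 0.93, and ranged from 0.77 to 0.88 without each library in turn. Each of the 8 kept its direction in every such setting, which a rule of no overlap fixes. Over all genes, limma called 7 genes, the Ballgown-style model 0 (with 934 at an unadjusted p under 0.05), the replicate block 1, and leaving out 1 library 1 to 18 (1 without NC replicate 3, 18 without NC replicate 1, 14 without NC replicate 2 and 11 without OE replicate 2). Of the 117 relatives and partners, 0 were called in each setting except 1, SLC35E1, without NC replicate 1, so leaving out a library gave 0 to 1. The list medians lay between -0.07 (ARL genes) and 0.10 (BRPF and JADE complexes), both without NC replicate 1, when a library was left out, and those of the SHISA and SLC35 lists changed sign (lowest -0.003 and -0.02). The neighbouring genes were only TREX1, ATG3 and AC134772.2, the last tested only without the filter. Of them, 0 were called in any setting, beside 0.0634% of all genes tested in the main fit. So few genes could hardly give another count. Libraries with the same replicate number did not deviate together (correlations of -0.01, 0.01 and -0.01), so the numbers were not taken as pairs. The depth is unknown, which leaves the counting error of low values such as SAMD12 in NC unknown.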
